A study of Homo sapiens with 6 samples.

Results

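The genes described here encode 40 proteins of homologous recombination and of the Fanconi anemia pathway. They were listed by name, and a probe was assigned to a gene when its RefSeq accession mapped to that symbol. Where several probes mapped to a gene, the one that was brightest on average over the arrays (mean log2 signal) was used. All 40 genes had a probe, among 22438 genes that could be named in this way on the array.

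Transcript levels were measured in AGS, a cell line from a human gastric adenocarcinoma, transfected for 48 h with 10 nM of a nontargeting siRNA (si-Control) or of an siRNA against C1GALT1 (si-C1GALT1-3). C1GALT1 encodes the galactosyltransferase that extends O-linked GalNAc to the core 1 structure. Each group had 3 samples on one-colour Agilent arrays, so the number of arrays limits the precision, and a single siRNA stands for the knockdown. The labels do not say whether the replicates were separate cultures, and p-values therefore measure the spread between these samples.

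Homologous recombination copies a broken DNA molecule from its sister chromatid, mainly in S and G2 phase. The ends are resected to single strands, BRCA2 and its partners prepare these for invasion of the intact molecule, and the joined molecules are later dissolved or cut. The Fanconi anemia proteins detect crosslinked DNA, and their core complex attaches ubiquitin to FANCD2 and FANCI, which directs the nucleases and recombination proteins to the lesion.

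Between 66.2% and 72.7% of spots were well above background on each array, and correlations between arrays of a group lay between 0.973 and 0.988. The array of si-Control replicate 2 had a rectangle of low signal, lines 113 to 288 of 384 and columns 59 to 115 of 164, with 15.9% of its gene spots. Against the mean of its 2 companion controls, before normalization, its signals deviated by a median of -2.19 on the log2 scale inside the rectangle and -0.06 elsewhere. Spots inside it were set to missing on that array, which left 6 of the 40 genes without a value there. Replicates of the same number shared a slide, with the si-Control array always in one column of the slide and its partner in the other, so that position and treatment cannot be told apart. All 7 epithelial markers, among them EPCAM, KRT8 and CDH1, were well above background on every array. So were, on each array with a value, 3 of 6 fibroblast markers (PDGFRB, COL1A1 and COL3A1), 3 of 4 leukocyte markers (PTPRC, CD3E and CD14) and 3 of 4 endothelial markers (VWF, CDH5 and CLDN5), whereas COL1A2 and LUM were on none, so being above background did not separate the cell types on this array.

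C1GALT1 itself had normalized log2 signals of 12.22, 13.03 and 12.62 on the si-Control arrays and 11.76, 11.98 and 11.13 on the si-C1GALT1-3 arrays. All 3 knockdown arrays lay below all controls. The log2 fold change was -1.0 ± 0.31 (SE), with an adjusted p of 0.265 (limma, Benjamini-Hochberg over all probes) and an unadjusted p of 0.0193, so the targeted gene did not pass p under 0.01.

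Promoters are shown for UBE2T and RAD51AP1, which fell, and for BLM and RAD54L, which had large negative values. Those of FANCD2, whose direction depended on the probe, and of FANCF, which had a positive value, are also shown. Words common in cell cycle promoters can thus be read beside the values. The sequences come from RefSeq (GRCh38.p14) and run from 160 bases before the start of the gene to 30 bases after it, on the strand of the gene. Capitals mark the CHR word TTTGAA, the CCAAT box bound by NF-Y and the E2F words TTTGGCGC, TTTGCCGC, TTTCGCGC and TTTCCCGC, on either strand. The stretches lie at chr1:202341907-202342096 (UBE2T, minus strand), chr12:4538730-4538919 (RAD51AP1, plus strand), chr15:90717186-90717375 (BLM, plus strand), chr1:46247528-46247717 (RAD54L, plus strand), chr3:10026277-10026466 (FANCD2, plus strand) and chr11:22625794-22625983 (FANCF, minus strand).
UBE2T: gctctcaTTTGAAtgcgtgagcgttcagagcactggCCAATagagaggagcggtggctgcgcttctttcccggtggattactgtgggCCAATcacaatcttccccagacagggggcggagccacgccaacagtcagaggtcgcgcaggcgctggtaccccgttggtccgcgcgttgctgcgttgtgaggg
RAD51AP1: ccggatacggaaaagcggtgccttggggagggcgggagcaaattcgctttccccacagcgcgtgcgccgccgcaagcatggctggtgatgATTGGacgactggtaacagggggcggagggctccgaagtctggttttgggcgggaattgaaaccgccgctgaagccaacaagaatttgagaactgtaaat
BLM: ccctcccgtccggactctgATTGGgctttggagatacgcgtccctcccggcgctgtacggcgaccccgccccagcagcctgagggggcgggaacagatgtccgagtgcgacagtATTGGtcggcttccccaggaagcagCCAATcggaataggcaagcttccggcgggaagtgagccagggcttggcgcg
RAD54L: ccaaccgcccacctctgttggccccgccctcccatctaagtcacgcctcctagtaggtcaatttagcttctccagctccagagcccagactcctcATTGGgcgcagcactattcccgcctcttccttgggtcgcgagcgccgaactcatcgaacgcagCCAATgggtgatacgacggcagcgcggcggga
FANCD2: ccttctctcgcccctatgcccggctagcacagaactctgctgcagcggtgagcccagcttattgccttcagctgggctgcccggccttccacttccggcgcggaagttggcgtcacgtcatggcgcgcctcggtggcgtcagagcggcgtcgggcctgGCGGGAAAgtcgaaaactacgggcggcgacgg
FANCF: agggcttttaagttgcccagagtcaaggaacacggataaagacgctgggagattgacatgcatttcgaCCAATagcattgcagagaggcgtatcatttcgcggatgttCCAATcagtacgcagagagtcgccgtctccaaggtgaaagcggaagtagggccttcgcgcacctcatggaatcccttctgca

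UBE2T had 1 CHR word and 2 CCAAT boxes in this stretch. RAD51AP1 had 1 CCAAT box and no CHR or E2F word, whereas BLM had 3 CCAAT boxes and RAD54L had 2. FANCD2 had 1 E2F word near its start, and FANCF, whose value was positive, had 2 CCAAT boxes. Over the full windows, 250 bases before to 50 bases after the start, 36 of the 40 genes had an entry. An E2F word was present in 16.7% of them and in 3.33% of all 27305 promoters. The CHR word was present in 11.1% against 15.4%, the CCAAT box in 44.4% against 35.7%, and the SP1 word GGGCGG in 77.8% against 44.6%. Among the 8 of these promoters whose genes were lower at an unadjusted p under 0.05 in limma, 3 had an E2F word, as did 3 of the other 28. The CHR word was in 2 of the 8 and 2 of the 28, the CCAAT box in 4 and 12, and the SP1 word in 8 and 20. These groups were formed from p-values of the same data, and the split was not tested. A match shows only that these letters are present.

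Across the 40 genes, 27 (67.5%, against 47.6% of all named genes) had a negative and 13 a positive log2 fold change in si-C1GALT1-3 cells. The median was -0.25, compared with 0.02 over all 22438 named genes. Only UBE2T and RAD51AP1 fell past p under 0.01 and 2-fold, and no gene of the set rose past it. Of all named genes, 1.33% passed this threshold as lower and 2.08% as higher, and of all 58195 probes 0.991% and 1.65%. After Benjamini-Hochberg adjustment in limma, 0 of the 40 genes had p under 0.05, compared with 49 probes of the whole array, and the smallest adjusted value on the array was 0.0499. With the slide as a replicate block, 0 probes of the array were under that level and 1604 passed p under 0.01 and 2-fold.

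At an unadjusted p under 0.05 in limma, 10 of the 40 genes (25%) were lower, namely BLM, EXO1, FANCC, FANCD2, FANCI, RAD51AP1, RAD54L, RBBP8, RMI2 and UBE2T. Over all named genes this share was 7.14%. It was 8.26% over the 17742 named genes well above background on all measured arrays of either group. PALB2 and FANCF were the 2 higher genes, where the share over all named genes was 9.49%. The si-C1GALT1-3 arrays lay entirely below the si-Control arrays for 14 genes (35%, 12 of them with values on all 6 arrays). This share was 11.2% over all named genes and 12.4% over the 17742 well above background. The si-C1GALT1-3 arrays lay entirely above for 3 genes, against 14% of all named genes. The count of 10 became 6 with the slide as a replicate block and 2 with no normalization between arrays, while leaving out each array in turn gave 5 to 12, the lowest without si-Control replicate 3. Fewer cells of a kind and less RNA per cell cannot be told apart in these bulk samples.

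**Figure D1:**
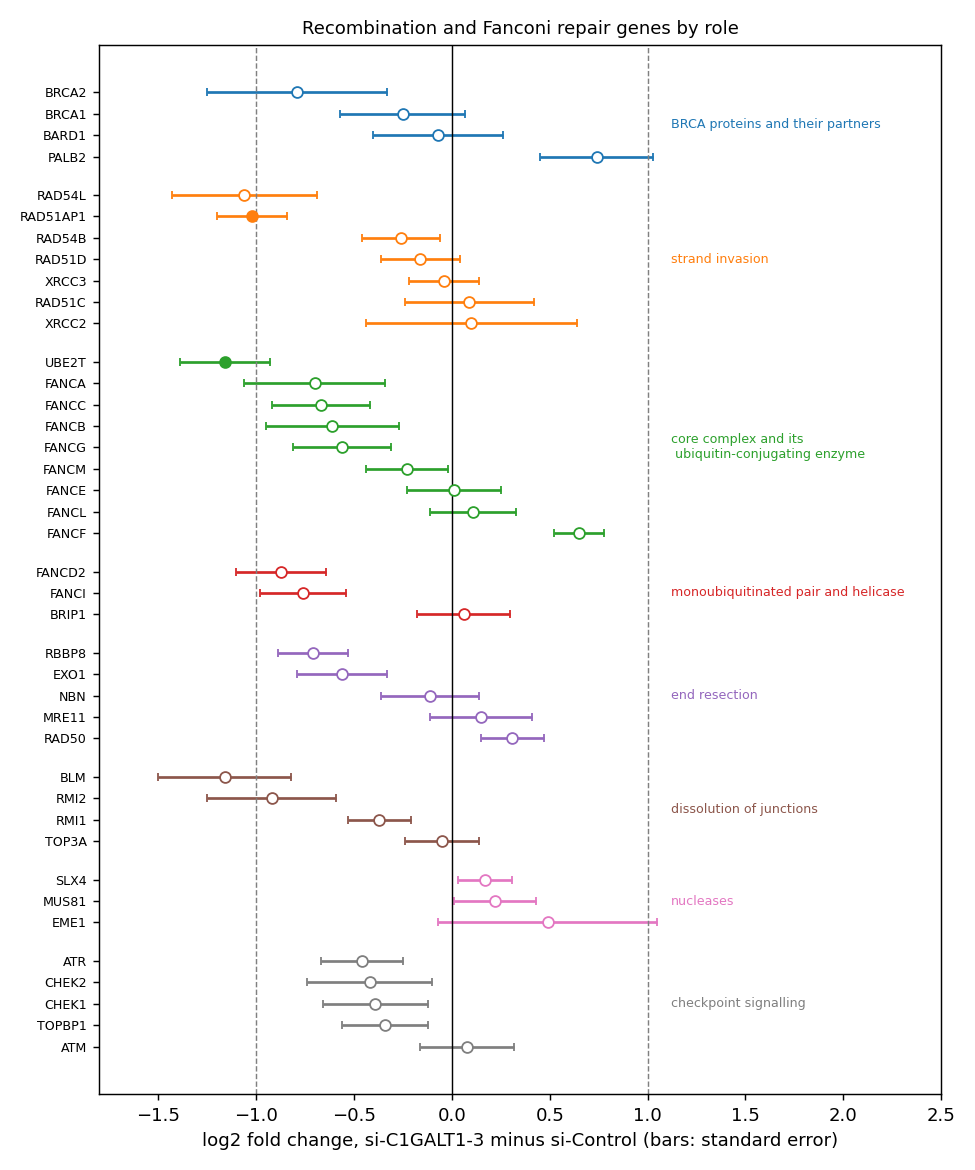
Log2 fold change of each of the 40 genes, si-C1GALT1-3 minus si-Control, with the standard error as a bar and the genes grouped by role. Filled points passed p under 0.01 and 2-fold (UBE2T and RAD51AP1), and dashed lines mark 2-fold. The 3 nucleases lie right of 0 and the 4 dissolution genes left of it, EME1 and TOP3A by less than their standard errors.

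The BRCA group holds BRCA1 and its ubiquitin ligase partner BARD1, BRCA2, and PALB2, which bridges BRCA1 and BRCA2. None of the 4 passed p under 0.01 and 2-fold. PALB2 had log2 signals of 8.88, 9.27 and 9.91 on the si-Control arrays and 10.02, 9.96 and 10.29 on the si-C1GALT1-3 arrays. Every knockdown array was above every control, by the narrowest margin at si-Control replicate 3, and the log2 fold change was 0.74 ± 0.29 (SE). Without si-Control replicate 3 it was 1.0 and passed the threshold.

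BRCA2 had log2 signals of 6.41, 7.20 and 7.28 in si-Control cells and 6.82, 6.41 and 5.30 in si-C1GALT1-3 cells. The groups overlapped, replicate 3 of the knockdown was the lowest of the 6 arrays, and the probe was not well above background on 1 of them. Its log2 fold change was -0.79 ± 0.46 (SE). BRCA1, printed at 10 places, gave -0.25 ± 0.32 and BARD1 -0.07 ± 0.33. For BRCA1 the si-C1GALT1-3 arrays read 8.15, 8.13 and 7.11, and only the last lay below the si-Control arrays (7.81, 8.16 and 8.16).

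Among the 7 genes of strand invasion, the 2 largest changes were those of RAD51AP1 and RAD54L. RAD51AP1, which stimulates strand invasion, had log2 signals of 11.20, 11.35 and 11.24 in si-Control cells and 10.49, 10.28 and 9.95 in si-C1GALT1-3 cells. The groups did not overlap and the controls lay close together, with an SD of 0.0762. RAD51AP1 fell by 1.02 on the log2 scale (SE 0.18; limma, Benjamini-Hochberg adjusted p = 0.122), to 0.493 of the control signal.

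RAD54L, a DNA translocase that acts in strand invasion, had log2 signals of 10.92, 11.37 and 11.33 in si-Control cells and 10.57, 10.53 and 9.36 in si-C1GALT1-3 cells. All knockdown arrays were lower, and replicate 3 was far below the other 2. The log2 fold change was -1.06 ± 0.37 (SE), and -0.66 without that array. With all 6 arrays RAD54L had an unadjusted p of 0.0309 in limma and did not pass p under 0.01. Its relative RAD54B gave -0.26 ± 0.20 with one probe and 0.15 ± 0.40 with the other. The first read 11.17, 11.45 and 11.70 in controls and 11.25, 11.35 and 10.95 in knockdown cells, and the second 11.26 and 10.38 on 2 controls and 11.29, 11.17 and 10.45. Both sets of arrays overlapped.

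RAD51C, RAD51D, XRCC2 and XRCC3, which form complexes that act early in recombination, had log2 fold changes between -0.16 (RAD51D) and 0.10 (XRCC2). XRCC3 gave -0.04 ± 0.18 and RAD51C 0.09 ± 0.33. All 4 overlapped between groups and were smaller than their standard errors. XRCC2 had no value on si-Control replicate 2 and read 13.72 and 12.15 on the other 2 controls, a wider gap than among the knockdown arrays (13.49, 12.82 and 12.78).

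In the Fanconi core complex and its ubiquitin-conjugating enzyme, 6 of 9 genes had negative changes and the median was -0.56. UBE2T, the E2 enzyme that passes ubiquitin to FANCD2 and FANCI, had log2 signals of 12.52, 12.75 and 12.36 in si-Control cells and 11.76, 11.37 and 11.02 in si-C1GALT1-3 cells. The lowest control was above the highest knockdown array. UBE2T fell by 1.16 on the log2 scale (SE 0.23; limma, Benjamini-Hochberg adjusted p = 0.144), to 0.449 of the control signal, and the difference within the slides was -0.75, -1.38 and -1.34.

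FANCF, the adaptor that holds the core complex together, had a positive value. Its log2 signals were 11.07, 11.28 and 11.31 in si-Control cells and 11.83, 11.92 and 11.87 in si-C1GALT1-3 cells. The knockdown arrays lay within a narrow range above all controls. The log2 fold change was 0.65 ± 0.13 (SE) with one probe and 0.62 ± 0.15 with the other, under the 2-fold limit in both cases, with an adjusted p of 0.146 for the first (limma, Benjamini-Hochberg).

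FANCL, the ubiquitin ligase of the complex, gave 0.11 ± 0.22, the adaptor FANCE 0.01 ± 0.24, and the DNA translocase FANCM -0.23 ± 0.21. The remaining subunits had larger negative values that did not pass the threshold. FANCC had -0.67 ± 0.25 and FANCG -0.56 ± 0.25, both with knockdown arrays below all controls, and FANCB had -0.61 ± 0.34 with overlapping arrays.

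FANCA was measured by 3 probes that did not give the same change. The brightest, which lacked si-Control replicate 2, read 9.98 and 10.80 in controls and 9.98, 9.83 and 9.26 in knockdown cells. Its values nearly touched at replicate 1, and the log2 fold change was -0.70 ± 0.36 (SE). The second read 8.34, 8.51 and 8.93 in controls and 7.86, 7.32 and 6.70 in knockdown cells, with no overlap, and gave -1.30 ± 0.33. The third, well above background on only 3 of 6 arrays, gave 0.01 ± 0.56 with readings of 4.88, 4.86 and 6.75 against 5.83, 5.48 and 5.2. Only the second probe passed p under 0.01 and 2-fold.

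FANCD2 and FANCI, the substrates of the core complex, had negative values, and BRIP1, a helicase that acts with BRCA1, gave 0.06 ± 0.24. None of the 3 passed the threshold. FANCI had log2 signals of 13.04, 12.90 and 13.28 in controls and 12.56, 12.47 and 11.91 in knockdown cells. The groups were separate and the log2 fold change was -0.76 ± 0.22 (SE). FANCD2 read 8.41 and 8.77 on the 2 controls with a value, and 7.85, 7.89 and 7.43 in knockdown cells, again with no overlap. This gave -0.87 ± 0.23 (SE), with an adjusted p of 0.245 (limma, Benjamini-Hochberg).

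A second FANCD2 probe, with a value on all 6 arrays, did not show this difference. It read 7.99, 8.22 and 7.53 in si-Control cells and 8.18, 7.82 and 8.25 in si-C1GALT1-3 cells, with overlapping groups and a log2 fold change of 0.17 ± 0.23 (SE). The third probe gave -1.03 ± 0.61, from readings of 5.09 and 4.67 against 4.97, 3.35 and 3.22, and was well above background on 0 arrays. The direction for FANCD2 therefore depends on the probe.

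**Figure D2:**
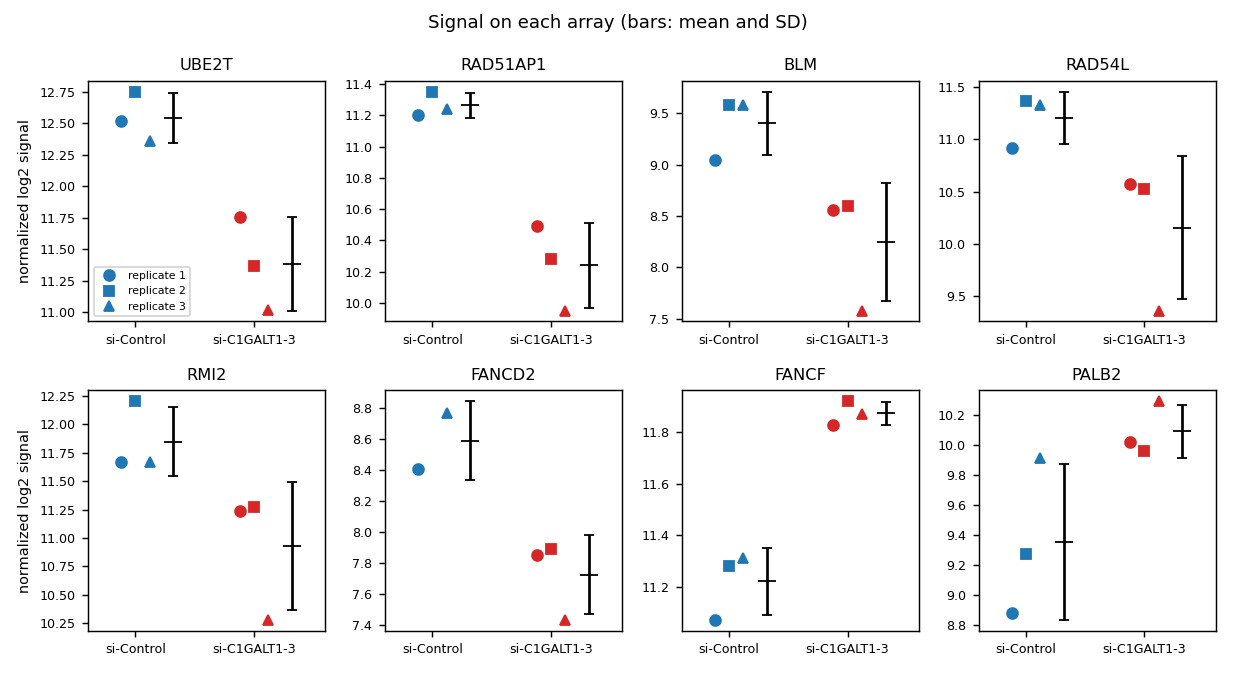
Normalized log2 signal on each array for 8 genes, one panel per gene with its own vertical scale; marker shapes give the replicate number, and bars beside the points give the mean and SD. The 6 genes from UBE2T to FANCD2 have all si-C1GALT1-3 arrays below the si-Control arrays, FANCF and PALB2 have them above, and replicate 3 of the knockdown is the lowest array for those 6.

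Of the 5 end resection genes, 3 had negative and 2 positive values, and none passed the threshold. RBBP8 (CtIP), which starts resection with the MRE11 nuclease, read 12.92, 12.68 and 12.46 in si-Control cells and 12.05, 12.09 and 11.80 in si-C1GALT1-3 cells. The groups did not overlap, and the slides gave differences of similar size (-0.87, -0.59 and -0.67). Its log2 fold change of -0.71 ± 0.18 (SE) had an unadjusted p of 0.00769 in limma but stayed under 2-fold.

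EXO1, the exonuclease of long-range resection, gave -0.56 ± 0.23 over 8 to 10 spots per array. The groups did not overlap, with differences of -0.04, -0.50 and -1.15 on slides 1, 2 and 3. RAD50, the structural subunit of the MRE11 complex, was also printed at 10 places. It read 11.24, 11.42 and 11.20 in controls and 11.51, 11.83 and 11.45 in knockdown cells, which was higher without overlap but only by 0.31 ± 0.16 (SE).

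The nuclease MRE11 and its partner NBN had no value on si-Control replicate 2. MRE11 read 12.34 and 12.28 in controls and 12.39, 12.85 and 12.13 in knockdown cells, and NBN 10.20 and 10.68 against 10.06, 10.38 and 10.56. In both cases the groups overlapped, with log2 fold changes of 0.15 ± 0.26 and -0.11 ± 0.25.

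BLM, TOP3A, RMI1 and RMI2 form the complex that dissolves double Holliday junctions without crossover. All 4 had negative changes, with a median of -0.65, and none passed p under 0.01 and 2-fold. BLM, its helicase, had log2 signals of 9.05, 9.58 and 9.58 in si-Control cells and 8.56, 8.60 and 7.58 in si-C1GALT1-3 cells. The groups did not overlap, and replicate 3 of the knockdown was about 1 log2 unit below the other 2. The log2 fold change was -1.16 ± 0.34 (SE) with an adjusted p of 0.244 (limma, Benjamini-Hochberg), as large as that of UBE2T but with a wider error.

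RMI2, a small scaffold subunit, read 11.67, 12.20 and 11.67 in controls and 11.24, 11.27 and 10.28 in knockdown cells, without overlap. Its log2 fold change was -0.92 ± 0.33 (SE), and -0.59 without the last array. RMI1, the scaffold partner of TOP3A, gave -0.37 ± 0.16 over 8 to 10 spots per array. The topoisomerase TOP3A gave -0.05 ± 0.19 with overlapping arrays, so within this complex the point estimates ran from near 0 to more than 2-fold.

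The structure-specific nucleases MUS81, EME1 and SLX4, which cut joined molecules, had positive values, and none passed the threshold. EME1 read 8.89, 8.59 and 8.09 in si-Control cells and 9.25, 9.94 and 7.84 in si-C1GALT1-3 cells. The highest and the lowest of the 6 arrays were both knockdown arrays, and the log2 fold change was 0.49 ± 0.56 (SE). MUS81, the catalytic partner of EME1, gave 0.22 ± 0.21 and the scaffold SLX4 0.17 ± 0.14, both with overlapping arrays.

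Of the checkpoint genes, the kinase ATR gave -0.46 ± 0.21 with its knockdown arrays (11.04, 11.12 and 10.47) below its controls (11.40, 11.35 and 11.27). A second ATR probe gave -0.21 ± 0.25. Its activator TOPBP1 gave -0.34 ± 0.22, and the kinase ATM, which responds to double-strand breaks, 0.08 ± 0.24. CHEK1, the effector kinase of ATR, read 11.06 and 11.53 on 2 controls and 10.90, 11.21 and 10.61 in knockdown cells, which overlapped (-0.39 ± 0.27). CHEK2, the effector of ATM, gave -0.42 ± 0.32 with its brightest probe, and its 3 other probes -0.67, -0.52 and -0.84. No checkpoint gene passed p under 0.01 and 2-fold.

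The differences were not equal across the slides. The median over the genes was 0.02 on slide 1, -0.20 on slide 2, where only 34 genes had a value, and -0.73 on slide 3. Over those 34 genes alone it was 0.16, -0.20 and -0.73, and over all named genes 0.05, 0.02 and 0. Of the 34 genes with a value on all 6 arrays, 15 were lower in the knockdown on slide 1, 24 on slide 2 and 29 on slide 3. Of the 18823 named genes with 6 values, 8568, 8949 and 9392 were lower on these slides, in the same order. Lower on all 3 slides were 13 of the 34 genes (38.2%, against 22% of those named genes). The si-C1GALT1-3 array of slide 3 was the lowest of the 6 arrays for 20 of these 34 genes (58.8%), whereas it was the lowest for 16.2% of all such named genes. Without it the median over the 40 genes was -0.19 and neither UBE2T (-0.97) nor RAD51AP1 (-0.87) reached 2-fold. UBE2T and RAD51AP1 also missed p under 0.01 or 2-fold without si-Control replicate 2 (-1.06 and -0.98), and UBE2T alone missed it when replicate 1 of si-Control (-1.17) or replicate 2 of si-C1GALT1-3 (-1.16) was left out.

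**Figure D3:**
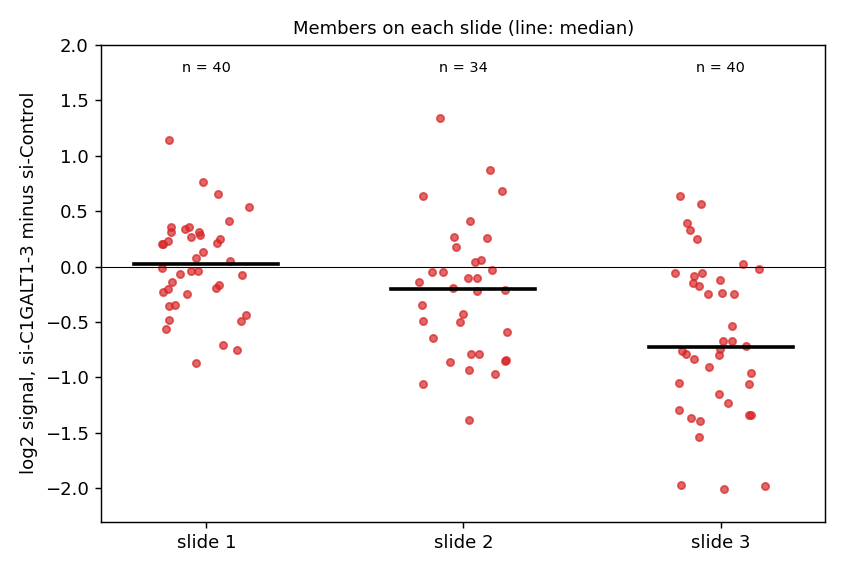
Log2 signal of si-C1GALT1-3 minus si-Control on each of the 3 slides, 1 point per gene and a line at the median; slide 2 lacks the 6 genes in the low-signal rectangle. The medians are 0.02, -0.20 and -0.73, and the points spread most widely below 0 on slide 3.

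Of 36 measured genes in a further list of recombination and Fanconi genes outside the 40, 19 had negative and 17 positive values, with a median of -0.01. BRCC3, a deubiquitinase of the BRCA1-A complex, was the 1 gene that passed p under 0.01 and 2-fold, and it fell by 1.01 on the log2 scale (SE 0.22). POLQ, the polymerase of theta-mediated end joining, gave -1.0 ± 0.20 and lay marginally under 2-fold, with no value on si-Control replicate 2. SFR1, a recombination accessory factor, had the highest value of the list, 0.94 ± 0.50, which was 0.37 without si-Control replicate 2. BRCC3 itself missed the threshold when any of 4 arrays was left out, with values down to -0.87.

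The other repair pathways had medians that were nearer to 0 than that of the 40 genes (-0.25) or above 0. The 13 genes of non-homologous end joining had a median of 0.15. XRCC4, the scaffold of ligase IV, was at -0.87 with no value on si-Control replicate 2, and the polymerase POLL was at 0.48. For 9 mismatch repair genes the median was -0.13, from LIG1 (-0.61, and -0.35 without si-Control replicate 3) to PMS2 (0.25, and 0.10 without it), and for 16 genes of the checkpoint clamp and chromatin signalling it was -0.04, from the ATR mediator CLSPN (-0.86 ± 0.37) to the clamp subunit HUS1 (0.69 ± 0.62). HUS1 read 4.99 on si-Control replicate 2 and between 7.0 and 7.28 on the other 5 arrays, and its value was -0.03 without that array. None of the genes in these lists passed the threshold. Of 17 nucleotide excision repair genes 15 had positive values, as did 11764 of all 22438 named genes. The median of the 17 was 0.39, from RAD23B (-0.09) to CETN2 (0.75, and 0.42 without si-Control replicate 1), and again none passed. In base excision repair, 18 genes had a median of 0.06, the glycosylase NEIL3 fell by 1.05 and the glycosylase NEIL1 rose by 1.13 on the log2 scale. Each missed the threshold when any of 4 arrays was left out, with NEIL3 between -1.23 and -0.90 and NEIL1 between 0.97 and 1.31.

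Cell cycle genes moved with these results, and their part in them was not tested. Of 43 S phase genes, 37 had negative values and the median was -0.59. The 4 that passed the threshold were DTL (-1.19), CDC45 (-1.12), MCM5 (-1.05, with no value on si-Control replicate 2) and RAD51AP1, all of them lower. Of the 40 repair genes, 4 (BLM, BRIP1, EXO1 and RAD51AP1) belong to this S phase list. All 53 measured G2/M genes had negative values, with a median of -1.04. Of these 18 fell past p under 0.01 and 2-fold, with HJURP (-2.01), CKAP2 (-1.61), BIRC5 (-1.58), CDC20 (-1.56) and KIF2C (-1.47) the largest. None of the 40 repair genes belongs to the G2/M list. Leaving out each array gave 0 to 7 S phase genes and 9 to 20 G2/M genes past the threshold as lower, with the fewest of both without si-C1GALT1-3 replicate 3. No S phase or G2/M gene reached an adjusted p under 0.05 in limma with Benjamini-Hochberg adjustment, where 18 and 39 of them had an unadjusted p under 0.05 and a negative value.

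**Figure D4:**
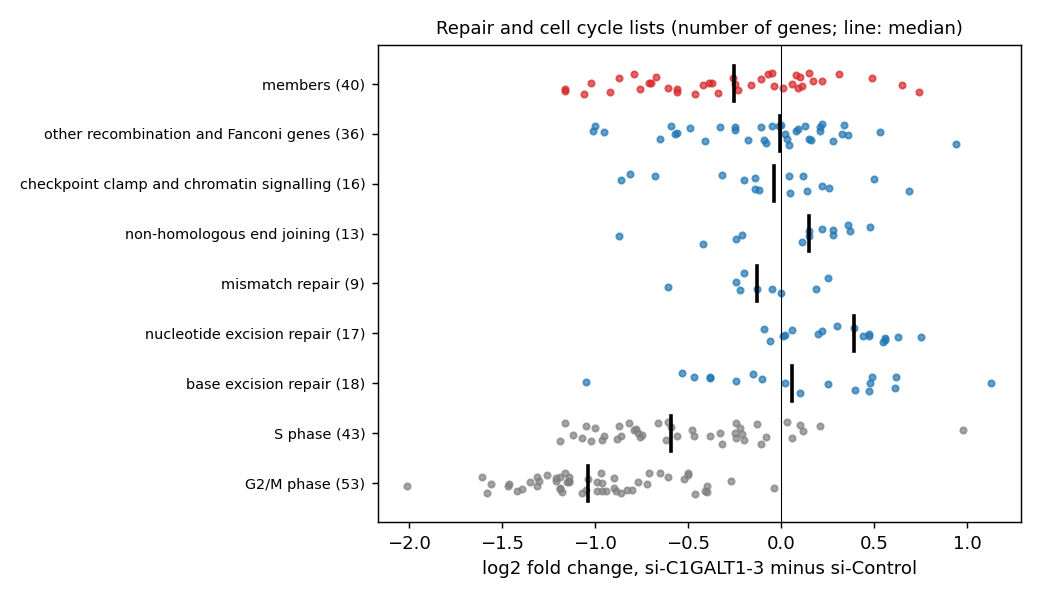
Log2 fold change, si-C1GALT1-3 minus si-Control, of every measured gene of the 40 repair genes, of 6 other repair lists and of the S phase and G2/M lists, 1 point per gene with the number of genes in brackets and a line at the median. The median is -0.25 for the 40 genes, -0.59 for S phase and -1.04 for G2/M phase, and the other repair lists lie between -0.13 and 0.39.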

How the data were processed

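Total RNA of 3 si-Control and 3 si-C1GALT1-3 samples was labelled and hybridized to one-colour Agilent arrays. The authors deposited the spot intensity from Agilent Feature Extraction 10.5.1.1, whose processed signal is background-corrected and not normalized between arrays. The deposited series table holds that intensity after background subtraction, to within 4.8e-09. The files name the build hg19, and gene symbols and promoters came from RefSeq tables of GRCh38.p14. The paper's methods give quantile normalization and limma.

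From the deposited intensity, log2 values of the processed signal were taken without control spots. Outlier spots (100 to 424 per array) and the low-signal rectangle of si-Control replicate 2 were set to missing. Arrays were quantile normalized, spots of a probe averaged, and groups compared with limma 3.58.1 in R 4.3.3 (lmFit and eBayes, two-sided, Benjamini-Hochberg over 58195 probes). A gene passed at p under 0.01 and 2-fold, the limits of the paper's volcano plot. Standard errors are those of the moderated fit, and ± on a log2 fold change is that error. Probes well above background are those the scanner software marked so. No gene spot was saturated. The procedure was checked on simulated independent arrays without missing values. That check covers neither the shared slides nor the masked rectangle.

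All 40 genes are named, with values per array for those past the threshold, the 3 largest decreases and increases, genes in the rectangle and genes whose probes differ in sign. Other genes shown per array (BRCA1, BRCA2, FANCI, RAD50, RBBP8, RMI2 and ATR) were added after their values were seen. From other lists, genes past the threshold are named, up to 5, or else the largest decrease and increase, and POLQ and SFR1 were added after their values were seen. Values of 1 gene in these lists are not reported here. The 40 genes and all lists were chosen with earlier results of these data known.

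Arrays of the same replicate number shared a slide, per the file headers. Their deviations from the group means correlated at 0.198, 0.215 and 0.329. The main fit did not model these pairs, and a replicate block in the model was an alternative. The other alternatives were the 75th percentile or no normalization, normexp with an offset of 50 on the median spot signal (the mean spot signal was not used here), no mask, a rectangle widened by 5 lines and columns, leaving out dim probes, a trend and robust prior, Student's t-test, which the paper's methods name for comparing groups in general and not for the arrays (the methods' t-test), keeping outlier spots, the series table floored at 10, a median across each gene's probes, and leaving out each array. Leaving out arrays for genes of the other lists was added after seeing the data.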

Additional observations from a re-analysis of the deposited data

How the results depend on the processing

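Of 18 alternatives, the median over the 40 genes stayed negative in all, and between -0.38 and -0.17 when each array was left out. The number of genes lower past p under 0.01 and 2-fold was 2 in the main fit. It was 3 with the 75th percentile or with dim probes left out, 0 with no normalization, and 0 to 2 when each array was left out. The number higher was 0 to 1 there, the 1 being PALB2 (1.00) without si-Control replicate 3. With the replicate block 2 genes were lower, and no call at p under 0.01 and 2-fold among the 40 genes changed, with 1604 probes past the threshold in place of 1538 and 0 in place of 49 at an adjusted p under 0.05. Probes past the threshold numbered 915 with normexp and 896 with the methods' t-test, and 1126 to 1781 when each array was left out. The methods' t-test gave 8 of the 40 genes and 6465 probes at p under 0.05, and 0 and 2 after Benjamini-Hochberg adjustment. C1GALT1 (-1.0) passed the threshold with dim probes left out, and ranged from -1.20 to -0.75 when each array was left out. Without the mask, spots in the rectangle of si-Control replicate 2 counted, and FANCA (1.64), FANCD2 (0.88) and CHEK1 (2.27) turned positive. So did NBN (1.95), whose change in the main fit (-0.11) was smaller than its standard error. RAD51AP1 (-0.90) and UBE2T (-1.05) missed the threshold with no normalization, and RAD51AP1 (-0.97) with normexp, whereas BLM passed with the 75th percentile (-1.19) or dim probes left out (-1.16), and RAD54L with normexp (-1.08). The 75th percentile moved the median of all probes to -0.11, and the 40 genes lay 0.16 below it. Of all probes past the threshold, 62.5% were higher after quantile normalization, 54.1% after the 75th percentile and 72.6% with none. HUS1, outside the 40 genes, ranged from -0.03 to 1.1 when each array was left out. For 14 genes the change was smaller than its standard error, and a change of sign in these was not counted. The cause of these shifts was not tested.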
